A study of Mus musculus with 82 samples.

Results

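A set of 8 genes that make, break down or sense retinoic acid was examined for binding of the T-box factors Eomes and Brachyury: Rdh10 and Aldh1a2 (synthesis), Cyp26a1, Cyp26b1 and Cyp26c1 (breakdown), and Rara, Rarb and Rarg (receptors). They are 8 of the 21887 coding genes of the mouse RefSeq annotation (GRCm38.p6, the build of the peak positions). Every ChIP-seq peak whose midpoint lay within 50 kb of the span of 1 of these genes was taken, and a peak near 2 of them was counted once. This gave 164 peaks of the 132113 in the 4 peak lists used. Overlapping peaks (by at least 1 bp) of the 4 lists were joined into sites, which gave 83 sites of 71918.

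The study holds 82 mouse samples, of which 12 are ChIP-seq libraries, and the 4 peak lists come from embryoid bodies, aggregates of differentiating embryonic stem cells. All of the cells were A2lox.Cre embryonic stem cells that lack both Eomes and Brachyury (dKO). They carried 1 construct switched on by doxycycline, received activin A at 30 ng/ml, and were collected on day 5. The lists thus give the places where each factor was found when it was put back alone.

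The GFP-tagged constructs, EoGFP (Eomes) and BraGFP (Brachyury), were pulled down with an antibody to GFP (2 libraries each, 1 peak list for each pair). The V5-tagged constructs, pulled down with an antibody to V5 (1 library each), were EoV5, which is Eomes, and EoVP16, a fusion of Eomes to the activation domain of VP16. The genes are induced from a transgene, so the level of the bound protein need not be that of the embryo, and the clones behind each line are not given in the sources used here. The lists hold 30129 peaks (EoGFP), 27588 (BraGFP), 38193 (EoV5) and 36203 (EoVP16). Each was deposited above its own minimum pileup (the number of overlapping fragments at a peak's summit), which was 120, 40, 60 and 36 fragments. Depth is unknown and the lists are not scaled to one another, so a peak missing from a list shows only that none reached that list's minimum. With 1 peak set per construct there is no replicate spread and no test. The values below are descriptions, and intervals cover counting error only.

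Retinoic acid is made from vitamin A in a pair of oxidation steps. Rdh10 oxidises retinol to retinaldehyde, and Aldh1a2 turns retinaldehyde into retinoic acid in the trunk mesoderm of the embryo. The Cyp26 enzymes oxidise retinoic acid to inactive products, and Cyp26a1 is known for guarding the tail end of the gastrulating embryo. Rara, Rarb and Rarg are nuclear receptors that, paired with a retinoid X receptor, sit on direct repeats of a short half-site. Rarb and Cyp26a1 are textbook targets of the receptors themselves, through such repeats in their promoters.

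The promoter sequences that the results turn on are shown first. They are the 250 bases before the start of the genes whose promoter lay under peaks of at least 2 lists, taken from RefSeq (GRCm38.p6) and written 5′ to 3′ on the strand of the gene. Capitals mark a DR5 or a T-box half-site. A DR5 is a direct repeat, spaced by 5 bases, of the 6 letters A or G, then G, then G or T, then TCA. The T-box half-site is GGTGTGA. Both were searched on both strands, as was DR2, the same repeat spaced by 2 bases, and no letters of these motifs overlap in the stretches shown.
Cyp26a1, chr19:37697558-37697807, plus strand: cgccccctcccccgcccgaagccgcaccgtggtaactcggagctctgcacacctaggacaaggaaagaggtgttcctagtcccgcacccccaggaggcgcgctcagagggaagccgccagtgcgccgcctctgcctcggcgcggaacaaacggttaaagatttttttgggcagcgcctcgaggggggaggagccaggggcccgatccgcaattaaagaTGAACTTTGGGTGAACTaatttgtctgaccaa
Rarb, chr14:16575477-16575726, minus strand: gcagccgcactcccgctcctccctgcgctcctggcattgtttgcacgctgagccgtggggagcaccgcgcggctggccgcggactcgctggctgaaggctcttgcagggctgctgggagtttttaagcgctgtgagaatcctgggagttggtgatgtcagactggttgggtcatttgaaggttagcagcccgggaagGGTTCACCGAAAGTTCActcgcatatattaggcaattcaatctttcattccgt
Rara, first start, chr11:98937446-98937695, plus strand: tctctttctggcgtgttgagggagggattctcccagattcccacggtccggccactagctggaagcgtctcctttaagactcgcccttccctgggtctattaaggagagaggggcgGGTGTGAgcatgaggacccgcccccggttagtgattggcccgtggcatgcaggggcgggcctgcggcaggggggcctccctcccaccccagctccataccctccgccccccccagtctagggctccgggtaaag
Rarg, second start, chr15:102246501-102246750, minus strand: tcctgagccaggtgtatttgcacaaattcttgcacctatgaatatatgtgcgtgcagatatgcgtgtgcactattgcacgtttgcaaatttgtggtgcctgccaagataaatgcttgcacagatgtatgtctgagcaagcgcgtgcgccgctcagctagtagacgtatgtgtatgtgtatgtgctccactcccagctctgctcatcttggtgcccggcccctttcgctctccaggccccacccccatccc

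The Cyp26a1 and Rarb stretches each held a DR5, the Rara stretch a T-box half-site, and the Rarg stretch neither. The DR5 of Cyp26a1 lay 32 to 16 bases before the start (chr19:37697776-37697792) and reads on the minus strand. That of Rarb lay 53 to 37 bases before the start (chr14:16575513-16575529) and reads on the strand of the gene. The repeats are set one above the other here, each on the strand where it reads as half-site, spacer, half-site, to show how alike they are.
Cyp26a1 DR5: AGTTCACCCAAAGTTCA
Rarb DR5: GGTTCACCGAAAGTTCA
Of their 17 positions 15 were identical. Counted from 1 at the 5′ end of the Cyp26a1 repeat, the differences were A1G in the first half-site and C9G in the spacer.

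The table of promoters holds windows of 300 bases (250 before to 50 after a start) for 7 of the 8 genes (all but Rdh10), 11 windows in all. A DR5 was present in 2 of these 11 windows, against 0.0974% of all 32851 promoter windows (32 windows). No member window held a DR2, which 0.268% of all windows held. The T-box half-site was found in 3 of the 4 windows of Rara, of which the first and second share the same letters, and in no other member; 3.98% of all windows held it. A match is a run of letters, not a measured site.

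Peaks covered 6 of the 11 member windows and the promoters of 5 of the 7 genes. EoGFP, BraGFP and EoV5 peaks each overlapped 4 of the 11 windows, and EoVP16 peaks 6. Over all promoter windows the shares were 30.3%, 15.8%, 24.1% and 38.5% in the order EoGFP, BraGFP, EoV5 and EoVP16. All 4 lists overlapped the Rarb window and the first and second Rara windows, 3 of 11 against 10.7% of all windows. With so few windows, and with the pair at Rara overlapping each other, these counts describe the genes and nothing more.

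**Figure D1:**
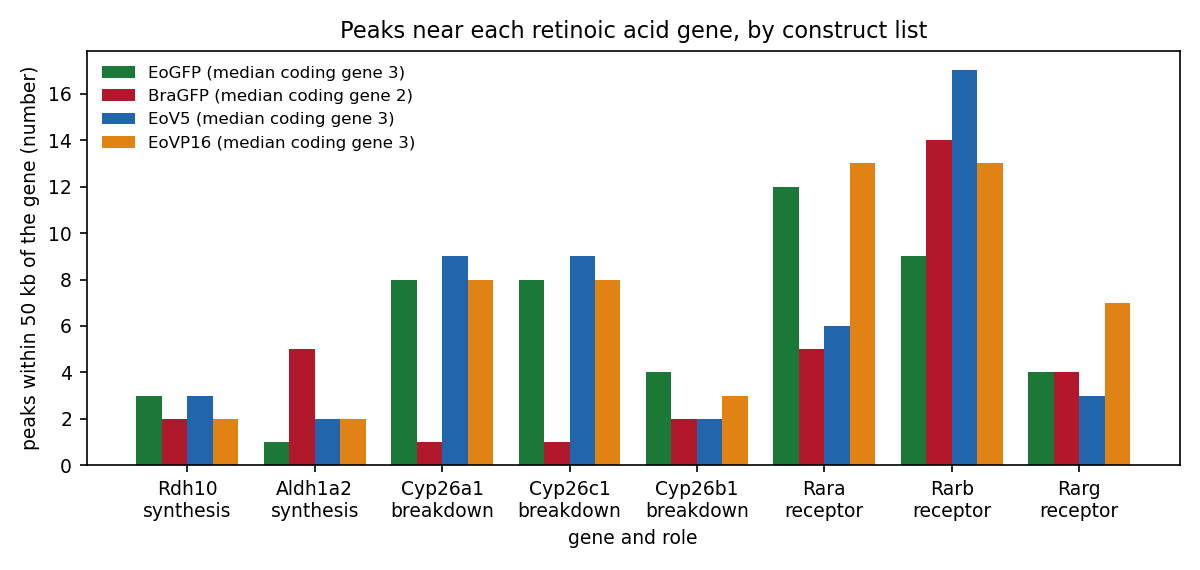
Number of peaks within 50 kb of each gene (vertical axis) for the 8 genes, grouped by role, with 1 bar for each list; Cyp26a1 and Cyp26c1 lie next to each other and share the same 26 peaks. The BraGFP bar is 1 at Cyp26a1 beside 8, 9 and 8 for the Eomes lists, and Rarb has the highest bars for BraGFP (14) and EoV5 (17).

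All 8 genes had at least 1 peak of every list within 50 kb, which is common in these lists: 81.1% of coding genes had an EoGFP peak that near, 76.5% a BraGFP peak, 83% an EoV5 peak and 84.2% an EoVP16 peak. Within 10 kb, 8 genes had an EoGFP peak, 6 a BraGFP peak, 7 an EoV5 peak and 8 an EoVP16 peak, against 65.2%, 53%, 62.2% and 71.1% of coding genes. The genes with no BraGFP peak within 10 kb were Cyp26a1 and Cyp26c1, and Cyp26c1 also had no EoV5 peak there. The EoGFP and EoVP16 peaks within 10 kb of Cyp26c1 were those at the Cyp26a1 promoter, so these counts include them for both genes. The plot of peaks per gene shows how unequal the 8 were. Rarb had 53 peaks over the 4 lists, Rara 36, the shared Cyp26a1 and Cyp26c1 locus 26, Rarg 18, Cyp26b1 11, and Rdh10 and Aldh1a2 10 each. Neighbours in this order, such as Cyp26b1, Rdh10 and Aldh1a2, differ by too few peaks to be ranked.

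At the window's edge, the outermost peaks inside 50 kb were an EoVP16 peak of 37 fragments at 49.3 kb from Rara and a BraGFP peak at 47.3 kb from Aldh1a2. The nearest outside were an EoVP16 peak of 46 fragments at 50.4 kb from Rarb and an EoV5 peak of 175 fragments at 53.3 kb from Cyp26b1.

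Rdh10, the retinol dehydrogenase that takes the first step of synthesis (chr1:16105882-16132550), had 3 EoGFP, 2 BraGFP, 3 EoV5 and 2 EoVP16 peaks within 50 kb, in 5 sites. The 3 sites with Eomes constructs held no BraGFP peak, and the 2 BraGFP peaks lay at sites of their own past the gene's far end. The site at chr1:16103422-16106663 covered the first bases of the Rdh10 span and an end of Rpl7, a ribosomal protein gene to which it was nearer by midpoint. The EoV5 peak there had 126 fragments (105 to 150, exact Poisson 95% interval) and the EoVP16 peak 157 (133 to 184). The ratio of EoV5 to EoVP16 height, 0.803, was the lowest of the 28 member sites with both lists, and 3.46% of the 20183 such sites in the genome had a lower one. A second site nearer to Rpl7, at chr1:16097649-16098646, had 107 fragments in EoV5 and 96 in EoVP16. The third, inside Rdh10 at chr1:16115558-16116820, was held by EoGFP and EoV5, with 62 fragments in EoV5, close to that list's minimum. By number of peaks Rdh10 was near the middle of the coding genes, of which 57.3% had at least as many.

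Aldh1a2, the enzyme that makes retinoic acid in early mesoderm (chr9:71215789-71296243), had more BraGFP than EoGFP peaks, 5 against 1, with 2 in EoV5 and 2 in EoVP16. Of all coding genes 14.7% had at least 5 BraGFP peaks within 50 kb. Per length, the Aldh1a2 window had 2.77 BraGFP peaks per 100 kb, a density that 21.4% of coding genes reached. Of the 7 sites, 4 held BraGFP alone, at 26.5 kb before the start near Aqp9 (an aquaporin gene), at 32.8 and 60.5 kb after the start inside the gene, and at 128 kb after it, past the gene's end. The site that all 4 lists held lay inside the gene, 14.4 kb after the start (chr9:71229824-71230459), where EoV5 had 225 fragments (197 to 256) and EoVP16 had 71 (55.5 to 89.6). The summits of the EoV5 and EoVP16 peaks there lay 5 bp apart. The Aldh1a2 promoter was overlapped by an EoVP16 peak alone, with 38 fragments, 2 above the minimum of that list. An EoV5 peak of 132 fragments with no partner lay 108 kb after the start. So at Aldh1a2 the constructs met at 1 intragenic site, and the remaining sites were each held by 1 list.

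Cyp26a1, the retinoic acid hydroxylase of the early embryo (chr19:37697738-37701536), and its neighbour Cyp26c1, a hydroxylase of the same family (chr19:37685112-37693320), shared 8 EoGFP, 1 BraGFP, 9 EoV5 and 8 EoVP16 peaks. Eomes constructs held all 10 sites of the locus. Over the genome 23% of sites were held by BraGFP alone, and every other site held an Eomes construct. The 6 sites nearer to Cyp26a1 held no BraGFP peak at all, and 5 of them were held by all 3 Eomes lists. At the genome scale 14.5% of sites were held by the 3 Eomes lists without BraGFP. Lack of a BraGFP peak is common at Eomes peaks. Over the whole lists 27.1% of EoGFP, 20.9% of EoV5 and 25.7% of EoVP16 peaks overlapped a BraGFP peak. Per length, the Cyp26a1 window had 25.05 peaks per 100 kb, and 1.92% of coding genes had a density that high.

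**Figure D2:**
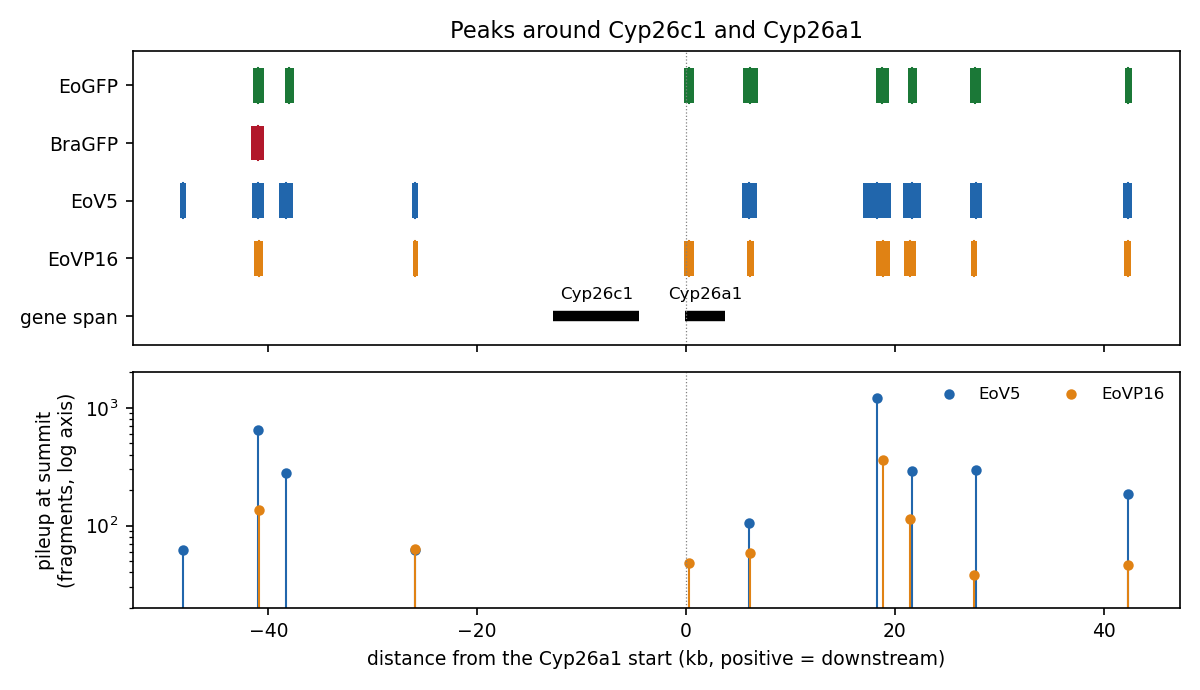
Peaks around Cyp26c1 and Cyp26a1 by distance from the Cyp26a1 start in kb: the upper panel gives each list's peaks and the gene spans, the lower panel the EoV5 and EoVP16 pileup on a log axis. The tallest peaks of both lists stand 18 to 19 kb after the Cyp26a1 start (1212 and 361 fragments), and the single BraGFP peak lies on the other side of Cyp26c1.

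The tallest peaks near any of the 8 genes stood 18.3 kb after the Cyp26a1 start (chr19:37714717-37717457). The EoV5 peak there had 1212 fragments (1145 to 1282), and only 74 of the 38193 EoV5 peaks were taller. The EoVP16 peak had 361 fragments (325 to 400), and 127 of 36203 EoVP16 peaks were taller. Their summits lay 20 bp apart. The authors' deposited fold enrichment over the caller's background was 173 in EoV5 and 60.5 in EoVP16. EoGFP held this site, and the BraGFP list had no peak there.

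Further sites of the 3 Eomes lists followed on the same side of Cyp26a1. At 21.6 kb after the start EoV5 had 293 fragments and EoVP16 114. At 27.7 kb they had 295 and 38, a ratio of 7.76 that was the highest of the 28 member sites with both lists and above that of 97.4% of such sites in the genome. At 42.3 kb they had 185 and 46. Nearer to the gene, at 6.09 kb, they had 106 and 59, with the summits 409 bp apart. The EoV5 values fell between 106 and 1212 and the EoVP16 values between 38 and 361, and the order of the sites was not the same in both lists.

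The Cyp26a1 promoter, with the DR5 shown above, was overlapped by an EoGFP and an EoVP16 peak (chr19:37697572-37698599). The EoVP16 peak had 48 fragments (35.4 to 63.6), and its summit lay 100 bp from the middle of the DR5. Of the 32 promoter windows with a DR5 in the genome, 9 had a peak of any list: 6 in EoGFP, 1 in BraGFP, 3 in EoV5 and 8 in EoVP16. In that order these were 18.75%, 3.125%, 9.375% and 25% of the 32. Each share was below that of all promoter windows (30.3%, 15.8%, 24.1% and 38.5%). The 32 windows include those of Cyp26a1 and Rarb, the counts are small, and the differences were not tested.

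Cyp26c1 had no peak at its promoter. The 4 sites on its outer side all lay nearest to Exoc6, a gene for a subunit of the exocyst, the complex that tethers secretory vesicles. The locus met BraGFP at 1 of them (chr19:37656185-37657408), 28.9 kb before the Cyp26c1 start, which all 4 lists held. The EoV5 peak had 652 fragments (603 to 704), a height near the 8 genes exceeded at the site 18.3 kb after Cyp26a1 alone, and the EoVP16 peak had 135 (113 to 160). The site beside it (chr19:37658855-37660270) had 280 fragments in EoV5 and an EoGFP peak, with no peak in EoVP16 or BraGFP. The other sites there had 62 fragments in EoV5 at each, close to that list's minimum, and 63 in EoVP16 at 1 of them.

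Cyp26b1, the hydroxylase known for the hindbrain and limb (chr6:84571414-84593908, minus strand), had 4 EoGFP, 2 BraGFP, 2 EoV5 and 3 EoVP16 peaks in 5 sites, and none at its promoter. The site of all 4 lists lay inside the gene 10.1 kb after the start (chr6:84582984-84584432), with 91 fragments in EoV5 and 81 in EoVP16, and summits 5 bp apart. A site 7.82 kb before the start (chr6:84601108-84602145) was held by the 3 Eomes lists, where EoV5 had 177 fragments (152 to 205) and EoVP16 had 148 (125 to 174). In EoVP16 1202 peaks were taller than this one, and in EoV5 7797. Sites at 5.39 and 3.61 kb after the start held EoGFP with or without EoVP16. A BraGFP peak alone lay 46.9 kb before the start, nearest to Exoc6b, an exocyst gene like the neighbour of Cyp26c1. By number of peaks 53.2% of coding genes had at least as many as Cyp26b1, and 7.81% as many as Cyp26a1.

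Rara, the most widely expressed of the retinoic acid receptors (chr11:98927800-98974942), had 12 EoGFP, 5 BraGFP, 6 EoV5 and 13 EoVP16 peaks in 16 sites. Of all coding genes 0.713% had at least 12 EoGFP peaks and 1.24% at least 13 EoVP16 peaks within 50 kb. Only 7 of the 16 sites were nearest to Rara. The others were nearest to Wipf2 (an actin regulator) and Cdc6 (a replication licensing factor) on one side, and to Gjd3 (a connexin) and Top2a (a DNA topoisomerase) on the other.

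The Rara starts are numbered by promoter window, and the RefSeq span begins further upstream, at chr11:98927800. A site of EoGFP and EoVP16 (chr11:98927353-98929076, 47 fragments in EoVP16) covered that end, which has no promoter window. All 4 lists held the site at the first of the numbered starts (chr11:98935838-98938754), where EoV5 had 122 fragments (101 to 146) and EoVP16 had 68 (52.8 to 86.2). The T-box half-site shown above (chr11:98937562-98937568) lies in it, 134 to 128 bases before the first start. The EoVP16 summit lay 89 bp and the EoV5 summit 261 bp from its middle. The third start, whose window also holds a T-box half-site, and the fourth start had no peak. The tallest EoV5 peak at Rara had 201 fragments and lay inside the gene, 10.9 kb before the fourth start, with 50 fragments in EoVP16. The EoVP16 heights at Rara ran from 37 to 81 fragments, on both sides of the list's median of 54.

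Both sites near the 8 genes that were held by EoGFP and BraGFP, but by neither EoV5 nor EoVP16, lay at Rara, 11.6 kb before the first start and 1.51 kb before the fourth. The peaks of the former had midpoints 1.8 kb (EoGFP) and 1.55 kb (BraGFP) before the RefSeq span of Rara. The sites were 2 of 83 member sites (2.41%, Wilson 95% interval 0.663 to 8.37), against 0.441% of all sites. Both lie at 1 gene and are not independent, so the interval is too narrow, and the difference was not tested. Of the 5 BraGFP peaks at Rara 4 overlapped an EoGFP peak.

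Rarb, the receptor that retinoic acid itself induces (chr14:16430839-17082331, minus strand), had the most peaks, with 9 EoGFP, 14 BraGFP, 17 EoV5 and 13 EoVP16 peaks in 32 sites. Only 0.361% of coding genes had as many over the 4 lists. Its RefSeq span of 651 kb is also the longest of the 8, and per length it had 7.05 peaks per 100 kb, a density that 55.6% of coding genes reached. BraGFP outnumbered EoGFP here as at Aldh1a2. Of the 14 BraGFP peaks 1 overlapped an EoGFP peak, and 10 of the 32 sites held BraGFP alone.

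**Figure D3:**
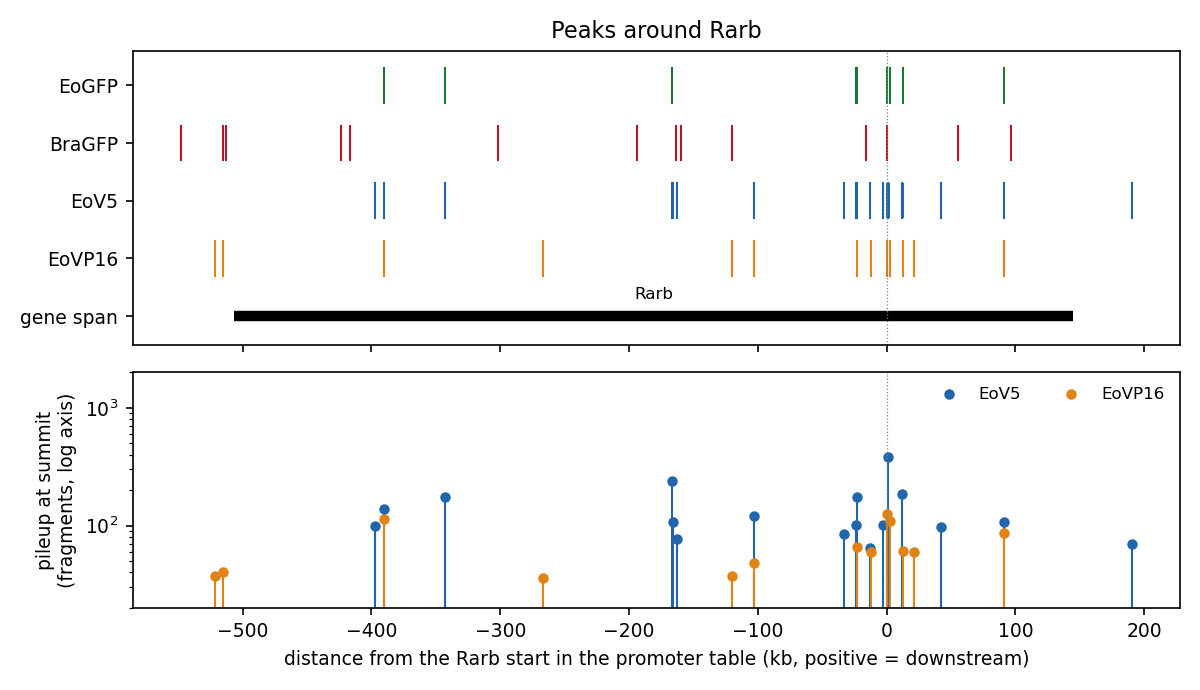
Peaks around Rarb by distance in kb from its start in the promoter table, with each list's peaks and the RefSeq span above and the EoV5 and EoVP16 pileup on a log axis below. The lists meet around the start, where EoV5 reaches 384 fragments. The BraGFP peaks are spread over the span and its upstream flank with few partners, most of them on the longer, upstream side.

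The single Rarb site of all 4 lists covered the promoter with the DR5 (chr14:16572484-16576195). EoV5 gave 1 broad peak of 384 fragments (347 to 424) there, with 1936 taller peaks in its list. EoVP16 gave 2 peaks, of 125 fragments (104 to 149) over the start and 109 fragments (89.5 to 131) inside the gene. The summit of the former lay 95 bp from the middle of the DR5, and the EoV5 summit lay 2450 bp away, 216 bp from the summit of the latter. EoGFP also had 2 peaks in this site and BraGFP 1. Both DR5 promoters of the 8 genes therefore had an EoGFP and an EoVP16 peak, and BraGFP and EoV5 peaks were listed at Rarb alone.

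Upstream of the start, 507 kb of the span and the 50 kb beyond its end together held 24 of the 32 sites. They also held 11 of the 14 BraGFP peaks, 8 of them at sites with no other list. On the other side, 145 kb of the span and its flank held 8 sites and 3 BraGFP peaks, so the longer side held more of both. The upstream stretch, flank included, held 5 EoGFP, 12 EoV5 and 8 EoVP16 peaks. The tallest EoV5 peaks in it had 239 fragments 167 kb before the start and 176 fragments 343 kb before it, each with an EoGFP peak and no EoVP16 peak. The 3 Eomes lists met at 22.9 kb before the start, with 175 fragments in EoV5 and 66 in EoVP16. They met again at 390 kb before it, with 139 and 113. Downstream of the start the 3 Eomes lists met at 12.2 kb (185 and 61 fragments) and at 91.2 kb (108 and 86 fragments). The outermost EoV5 peak, of 70 fragments, was nearest to Top2b, a DNA topoisomerase gene beyond the end of Rarb.

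By their 4 counts, the coding genes most like Rarb were Cntnap2 (8, 14, 18 and 12 peaks in EoGFP, BraGFP, EoV5 and EoVP16), Dennd1a (10, 13, 16 and 12) and Sox5 (11, 14, 17 and 16). The sums of absolute differences from Rarb over the 4 lists were 3, 4 and 5. Their spans are 2241, 488 and 954 kb, so they too are long genes.

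Rarg, the receptor expressed in the primitive streak and tail bud (chr15:102234938-102257522, minus strand), had 4 EoGFP, 4 BraGFP, 3 EoV5 and 7 EoVP16 peaks in 8 sites, of which 3 were nearest to Rarg. It was the single member with 2 sites held by all 4 lists. One lay at its second, internal start (chr15:102245405-102248202), where EoV5 had 80 fragments (63.4 to 99.6) and EoVP16 had 61 (46.7 to 78.4). There BraGFP, EoV5 and EoVP16 peaks overlapped the promoter window shown above, while the EoGFP peak of the site lay just upstream of it. The other lay 22.0 kb before the first start, nearest to Mfsd5, a membrane transporter gene, with 89 and 87 fragments and summits 47 bp apart. The first start had no peak. On the far side, 2 sites were nearest to Csad, a gene of taurine synthesis. At one of them (chr15:102200458-102201262) EoV5 reached its highest value at Rarg, 245 fragments, with 54 in EoVP16 and no BraGFP peak. The other (chr15:102202895-102204810) was held by EoGFP, BraGFP and EoVP16, with 78 fragments in EoVP16. The remaining neighbours were Itgb7, an integrin gene, and Espl1, the separase gene, each with an EoVP16 peak alone, of 41 and 46 fragments.

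The study compares Eomes with Brachyury, and of the 33 BraGFP peaks near the 8 genes 11 overlapped an EoGFP peak (33.3%, Wilson 95% interval 19.8 to 50.4), against 29.3% of all BraGFP peaks. The interval contains the share of the whole list. Rarb decides this value, since without it 10 of 19 BraGFP peaks overlapped (52.6%, 31.7 to 72.7). By gene, the overlap was 4 of 5 at Rara, 3 of 4 at Rarg, 1 of 2 at Cyp26b1, 1 of 1 at the Cyp26a1 locus, 1 of 5 at Aldh1a2, 0 of 2 at Rdh10 and 1 of 14 at Rarb. BraGFP therefore met EoGFP at most of its peaks at Rara and Rarg and at few of them at Rarb and Aldh1a2. These differences between genes were not tested. BraGFP alone held 19 of the 83 sites (22.9%, 15.2 to 33.0), against 23% of all sites, and 14 of these 19 lay at Rarb and Aldh1a2.

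**Figure D4:**
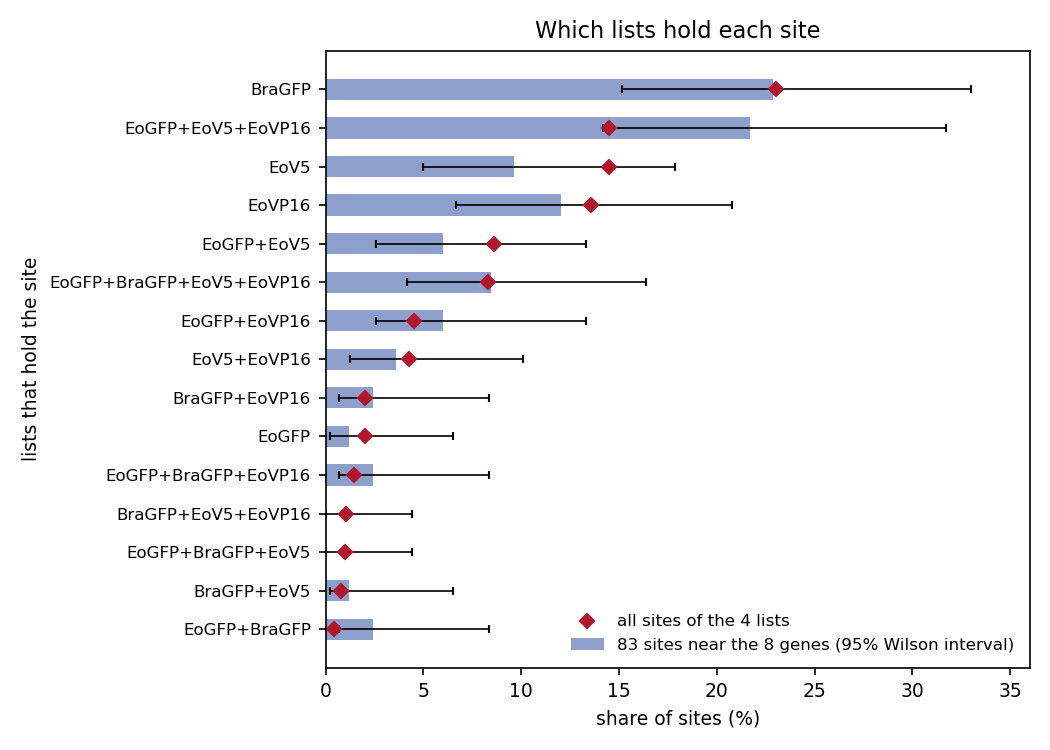
Share of sites in percent (horizontal axis) by the lists that hold them (vertical axis): bars with 95% Wilson intervals are the 83 sites near the 8 genes, and diamonds are all 71918 sites. BraGFP alone (22.9%) and the 3 Eomes lists without BraGFP (21.7%) are the commonest kinds near the 8 genes.

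Sites held by all 4 lists were 7 of 83 (8.43%, 4.15 to 16.4), close to the 8.3% of all sites. They lay 2 at Rarg and 1 each at Aldh1a2, Cyp26b1, Rara, Rarb and the outer side of Cyp26c1. Sites held by the 3 Eomes lists without BraGFP were 18 of 83 (21.7%, 14.2 to 31.7), against the 14.5% of all sites given above, which lies inside the interval. Of the 18, 5 lay at Cyp26a1, 5 at Rara, 4 at Rarb, 2 at Rdh10 and 1 each at Cyp26b1 and Rarg. Sites of 1 gene are neighbours and not independent. For each of these 3 kinds of site the share over the genome lay inside the interval for the 8 genes.

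The Eomes lists also serve as a check on one another, since EoGFP and EoV5 carry the same protein with different tags. Of the 41 EoGFP peaks near the 8 genes 31 overlapped an EoV5 peak (75.6%, 60.7 to 86.2), against 79.6% of all EoGFP peaks. EoVP16 is the fusion to the VP16 activation domain. Of its 48 peaks 29 overlapped an EoV5 peak (60.4%, 46.3 to 73.0), against 56.9% of the list. EoV5 and EoVP16 also come from separate lines and libraries, and a role of the activation domain was not tested. At the 19 member sites with EoVP16 and no EoV5 the median height was 46 fragments (36 to 81), and at the 28 sites with both it was 67 (38 to 361). EoV5 showed the same ordering, with a median of 100.5 fragments (62 to 280) at the 14 sites without EoVP16 and 132.5 (62 to 1212) at the 28 with it. Over the genome the same medians were 45 and 66 fragments for EoVP16 and 90 and 110 for EoV5.

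**Figure D5:**
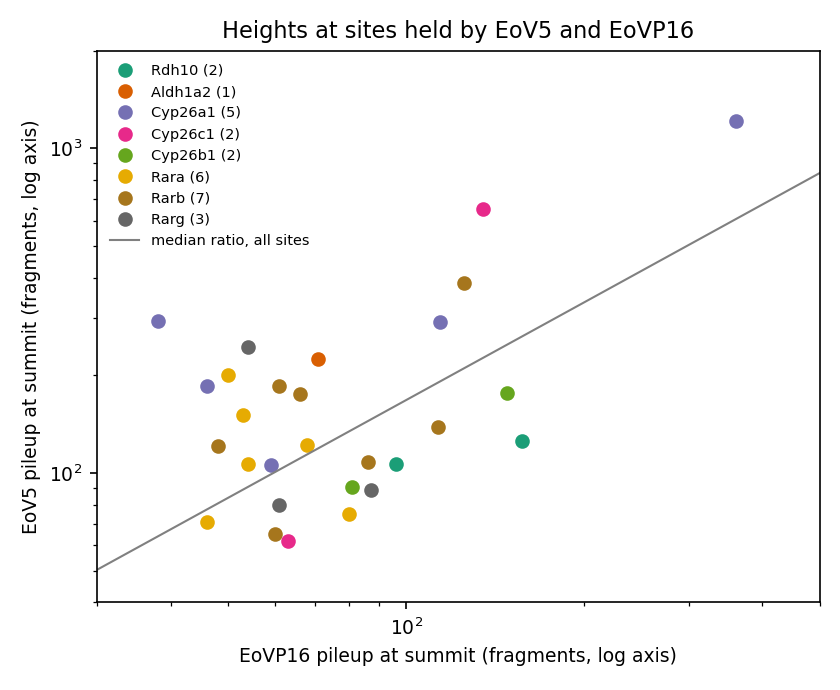
EoV5 against EoVP16 pileup, both in fragments on log axes, at the 28 sites near the 8 genes that both lists hold, coloured by gene, with a line at the median ratio of all 20183 such sites (1.68). Points of Cyp26a1 lie above the line, the highest at 1212 and 361 fragments, and both points of Rdh10 lie below it.

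At these 28 sites the ratio of EoV5 to EoVP16 height had a median of 1.89 and ran from 0.803 at Rdh10 to 7.76 at Cyp26a1. The median over all sites of both lists was 1.68, with a middle range of 1.19 to 2.77. The libraries are not scaled to one depth, so the ratio itself has no meaning beyond its place among other sites. All 5 Cyp26a1 sites were above the genome's median ratio and both Rdh10 and both Cyp26b1 sites were below it. Summits of the pair lay at most 100 bp apart at 21 of the 28 sites, against 82.9% of all sites of both lists, and their median distance was 28 bp (26 bp over the genome). The widest gaps were 492 bp at a Rara site near Wipf2 and 409 bp at the Cyp26a1 site 6.09 kb after the start.

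Peak heights near the 8 genes were close to those of the lists. The EoV5 median was 114.5 fragments against 99 for the list, and the EoVP16 median 59 against 54. Of the 42 EoV5 peaks 6 were among the tallest 10% of their list, and of the 48 EoVP16 peaks 8 were, where 10% is the share of each whole list by construction.

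The wider pathway was taken from a list of 35 further genes of retinoid storage, transport, oxidation and receptor partnership. All 35 had an EoGFP peak within 50 kb, 32 a BraGFP peak, 34 an EoV5 peak and 34 an EoVP16 peak, beside the shares of all coding genes given above. Within 10 kb the counts were 28, 26, 29 and 28 of 35. The median gene of the list had 3, 3, 4 and 4 peaks in EoGFP, BraGFP, EoV5 and EoVP16, against 3, 2, 3 and 3 over all coding genes. The genes with the most peaks each were Ppard, a fatty acid-sensing nuclear receptor (10, 5, 10 and 15), Crabp2, which carries retinoic acid to the receptors (11, 3, 9 and 12), and Stra6, the cell-surface receptor that takes up retinol (9, 6, 10 and 8). No gene of the list was without a peak in all 4 lists. More genes had an excess of EoGFP over BraGFP peaks (19) than the reverse (11), as did the coding genes as a whole (10308 and 5243).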

How the data were processed

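The 4 deposited ChIP-seq peak lists (EoGFP and BraGFP, 2 libraries each; EoV5 and EoVP16, 1 library each) were grouped by sample title. The authors' merged list was not analysed here, nor were uninduced cells, input, histone acetylation, chromatin accessibility and expression. The submitters' processing notes name MACS2 2.1.1.20160309.4, Bowtie2 2.3.4, bedtools 2.27.0, SAMtools 1.3.1 and Picard 1.56.0, and the build mm10/GRCm38. How library pairs were joined, and the control, are not given in the sources used here.

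The deposited EoGFP and BraGFP lists hold positions only, and do not state whether starts count from 0 or 1. The deposited EoV5 and EoVP16 lists, without headers, follow the MACS2 column order. Their signal is the pileup at the summit, their ratio is the authors' fold enrichment, and the deposited −log10 p and −log10 q were not used. Entries off the 21 assembled chromosomes (4, 7, 7 and 6) and repeated ones (12, 4, 46 and 26) were left out. Depth is unknown.

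Distances run from peak midpoints to RefSeq gene spans, or to starts in the promoter table. Overlap needed 1 bp, shares carry 95% Wilson and pileups exact 95% Poisson intervals (statsmodels 0.14.6, SciPy 1.17.1), and the functions were tested on simulated peaks. Named were the 8 genes, the nearest gene of each site nearer to another gene, the 3 genes with most peaks in each further list, and the 3 most like Rarb; a gene that this rule names is not reported here. Members and lists were chosen with earlier results of these data known. Alternatives changed window, overlap, height and motif.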

Additional observations from a re-analysis of the deposited data

How the results depend on the processing

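Across 21 results, 48 alternative values were computed, of which 36 stayed within 1.5 times the count or inside the interval of the share, and 12 did not. With a window of 10 kb the peaks near the 8 genes were 27 in EoGFP, 27 in EoV5 and 30 in EoVP16. With the wider 50% of each list they were 20 in EoGFP and 18 in BraGFP, and with the taller 50% 27 in EoVP16, a fall that a shorter list gives by construction. Counting peaks whose nearest coding gene is a member left 31 in EoVP16. Without Rarb, an alternative chosen after seeing the data, 19 BraGFP and 25 EoV5 peaks remained, and 52.6% of those BraGFP peaks overlapped EoGFP. Among the taller 50% of EoVP16 peaks, 21 of the 27 near the 8 genes overlapped EoV5 (77.8%). The share over all taller EoVP16 peaks was not computed, so this value has no background. Over the genome, EoVP16 heights were also greater at sites with EoV5 (median 66 fragments) than at those without (45). With the 6 letter core of the T-box half-site 2 genes had a match in place of 1, Rarb being added. Joining peaks at 50% of the shorter left the shares of shared sites as they were. No paired analysis was possible because each construct has 1 peak list, and for the same reason no library could be left out. Unknown depth and the different minimum pileups limit every statement on a peak that is absent from a list.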

Other observations

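A list of 20 genes known to respond to retinoic acid was described in the same way. All 20 had an EoGFP and a BraGFP peak within 50 kb, and 19 had an EoV5 and 19 an EoVP16 peak. Of all coding genes 81.1%, 76.5%, 83% and 84.2% had a peak that near in EoGFP, BraGFP, EoV5 and EoVP16. Within 10 kb the counts were 17, 16, 18 and 17 in the same order, against 65.2%, 53%, 62.2% and 71.1% of coding genes. No gene of the list was without a peak in all 4 lists. Many peaks lay near Meis2 (8 in EoGFP, 12 in BraGFP, 8 in EoV5 and 10 in EoVP16) and Meis1 (7, 7, 7 and 10), which encode homeodomain partners of the Hox proteins.

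BraGFP peaks outnumbered EoGFP peaks at 12 of these 20 genes, EoGFP peaks outnumbered BraGFP peaks at 5, and 3 had equal numbers. Of the 21887 coding genes, 5243 had more BraGFP, 10308 more EoGFP and 6336 equal numbers. Hoxa4 and Hoxb4 were chosen for mention after their values were seen. Hoxa4 had 8 BraGFP peaks beside 1 in EoGFP, 1 in EoV5 and 3 in EoVP16, and Hoxb4 had 6 beside 1, 0 and 4. Hox genes of the list that share a cluster also share peaks, so the list is not a set of independent genes.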
